A study of Mus musculus with 14 samples.

Results

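The genes described are 10 that encode H3K4 methyltransferases and the enhancer coactivators that work beside them: Mll1, Mll2, Mll3, Ncoa6, Kdm6a, Paxip1, Wdr5, Ep300, Crebbp and Med1. They were taken by name from the 22836 gene symbols in the deposited tables, by a list drawn up with earlier results of these data known, and all 10 were found and passed the filter on low values. For each symbol the transcript with the highest mean RPKM (the read number scaled to both the transcript's length and the library's total) over the 14 libraries was kept. 8 of the 10 genes have 1 listed transcript, and Ncoa6 and Med1 have more. By its RefSeq accession the row called Mll2 is the gene now named Kmt2d, whose protein is called MLL4 in much of the enhancer literature. Mll3 is Kmt2c by accession, and Mll1 is Kmt2a by its older name.

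RNA was sequenced from brown preadipocytes, from 3T3-L1 cells and from mouse brown adipose tissue, with 1 library in each of the 14 groups. The brown preadipocytes came from the interscapular fat of newborn pups with Pparg f/f alleles and were immortalized with SV40 T antigen, and no Cre is named in the labels. 3T3-L1 is an immortalized mouse line of white preadipocytes. Each line was sampled before induction (0h), 1h, 2h and 4h after it, and on day 2 and day 7. The tissue libraries came from adult mice (strain label C57BL/6J) and from embryos. The labels give every sample the same induction with insulin (0.02 µM), T3 (1 nM), IBMX (0.5 mM), dexamethasone (1 µM) and indomethacin (0.125 mM), tissue included, so how 3T3-L1 was treated is uncertain. The brown day 2 and day 7 libraries are marked as duplicates of samples in another series, and the day 2 and day 7 files of both lines have differently styled headers, so a batch of late libraries cannot be told apart from time.

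The culture libraries held between 39.5 and 80.9 mega-reads, the adult tissue library 5.35 and the embryonic one 18.8. In culture each of the 10 genes rested on 1521 to 30833 reads per library. Of 7 fat cell markers, Adipoq, Plin1 and Cidec were below 0.6 RPKM at 0h to 4h and above 24 RPKM at day 2 in both lines. Other markers were present before induction. At 0h Fabp4 stood at 19.8 RPKM in brown cells and 108.0 RPKM in 3T3-L1, and Pparg at 9.5 and 15.4 RPKM. In each line 4 of the 7 reached 1 RPKM at 0h, and all 7 did at day 2. Ucp1, the uncoupling protein that defines brown fat, was at 1.07 RPKM in brown cells at day 7 and at 0 in 3T3-L1 at day 7, against 1015 RPKM in adult and 1194 RPKM in embryonic tissue. At day 7, 5 of the 6 brown adipocyte markers reached 1 RPKM in brown cells and 3 of the 6 in 3T3-L1.

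Active enhancers carry monomethylated H3K4 and acetylated H3K27. MLL3 and MLL4 place most of the first mark at enhancers, in a complex that also holds NCOA6, the H3K27 demethylase KDM6A (UTX), PAXIP1 (PTIP) and the core subunit WDR5, and MLL4 is required for fat cell differentiation in mice. The related acetyltransferases p300 (Ep300) and CBP (Crebbp) place the second, MLL1 works mainly at promoters of developmental genes, and MED1 is the Mediator subunit through which nuclear receptors such as PPARγ reach RNA polymerase II.

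The promoters of the 10 genes differ widely in base composition, and 3 are shown because their genes bracket the responses described next: Ncoa6 and Ep300, the genes called lower at 2h, and Mll3, the gene called higher late. Sequences are RefSeq windows of 250 bases before to 50 bases after the listed start on GRCm38.p6, which is not the submitters' build, and the listed start need not be the one used in these cells. They are chr2:155440734-155441033 (minus strand) for Ncoa6, chr15:81585964-81586263 (plus strand) for Ep300 and chr5:25498734-25499033 (minus strand) for Mll3. Capitals mark GGGCGG, the core of the GC box that Sp1 proteins bind, or its reverse complement.
Ncoa6: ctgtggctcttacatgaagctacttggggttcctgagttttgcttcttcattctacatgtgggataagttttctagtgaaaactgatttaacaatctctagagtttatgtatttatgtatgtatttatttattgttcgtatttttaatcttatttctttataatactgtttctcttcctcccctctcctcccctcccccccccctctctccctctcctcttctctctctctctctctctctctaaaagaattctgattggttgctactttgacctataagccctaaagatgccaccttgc
Ep300: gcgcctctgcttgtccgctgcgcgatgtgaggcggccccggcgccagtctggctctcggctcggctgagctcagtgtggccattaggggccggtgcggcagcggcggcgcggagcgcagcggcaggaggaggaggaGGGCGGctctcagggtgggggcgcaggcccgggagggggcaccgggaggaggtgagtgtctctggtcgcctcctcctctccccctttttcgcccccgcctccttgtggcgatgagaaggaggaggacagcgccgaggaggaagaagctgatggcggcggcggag
Mll3: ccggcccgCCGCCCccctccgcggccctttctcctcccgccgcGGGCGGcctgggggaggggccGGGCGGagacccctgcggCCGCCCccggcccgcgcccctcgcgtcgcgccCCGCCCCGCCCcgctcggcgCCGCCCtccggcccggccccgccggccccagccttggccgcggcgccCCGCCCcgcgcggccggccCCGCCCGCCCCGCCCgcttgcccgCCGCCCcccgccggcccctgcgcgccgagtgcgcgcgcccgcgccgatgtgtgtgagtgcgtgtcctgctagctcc

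The Mll3 window held 88.0% G and C, 56 CG dinucleotides and 12 GC box matches, some of them overlapping, against a median of 52.7% G and C and 7 CG dinucleotides over all 32851 promoters in the table. The Ep300 window held 72.3% G and C, 30 CG dinucleotides and 1 GC box. The Ncoa6 window held 39.3% G and C, 1 CG dinucleotide, no GC box and 1 TATAAA. Crebbp, whose course in culture resembled that of Ncoa6, had a window of 82.0% G and C with 49 CG dinucleotides and 2 GC boxes. The other 6 windows lay between 59.0% (Wdr5) and 75.7% (Mll1) G and C. GGGCGG stood in 9 of the 10 windows and in 35.7% of all promoters. CCAAT stood in Ncoa6 and Med1 (37.4% of all promoters), TATAAA in Ncoa6 alone (13.6%) and TGACG, a part of the cAMP response element, in Kdm6a and Paxip1 (20.8%). AGAACA, a part of the glucocorticoid receptor element, stood in none of the 10 (19.0% of all promoters). Each motif was searched on both strands, none of them contains another, and the matches describe these letters only.

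At 0h the 10 genes were moderately expressed, at a median of 16.1 RPKM in brown cells and 12.5 RPKM in 3T3-L1. Ep300 was the highest of them in brown cells (22.6 RPKM) and Ncoa6 in 3T3-L1 (21.5 RPKM), while Mll3 was the lowest in both (3.44 RPKM in brown cells and 5.04 RPKM in 3T3-L1). All values below are RPKM, which divides by transcript length, so levels of different genes can be set side by side. At 2h after induction the summed level of the 10 genes was 108.1 RPKM in brown cells, against 150.6 RPKM at 0h, and 82.2 RPKM in 3T3-L1, against 130.3 RPKM at 0h.

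**Figure D1:**
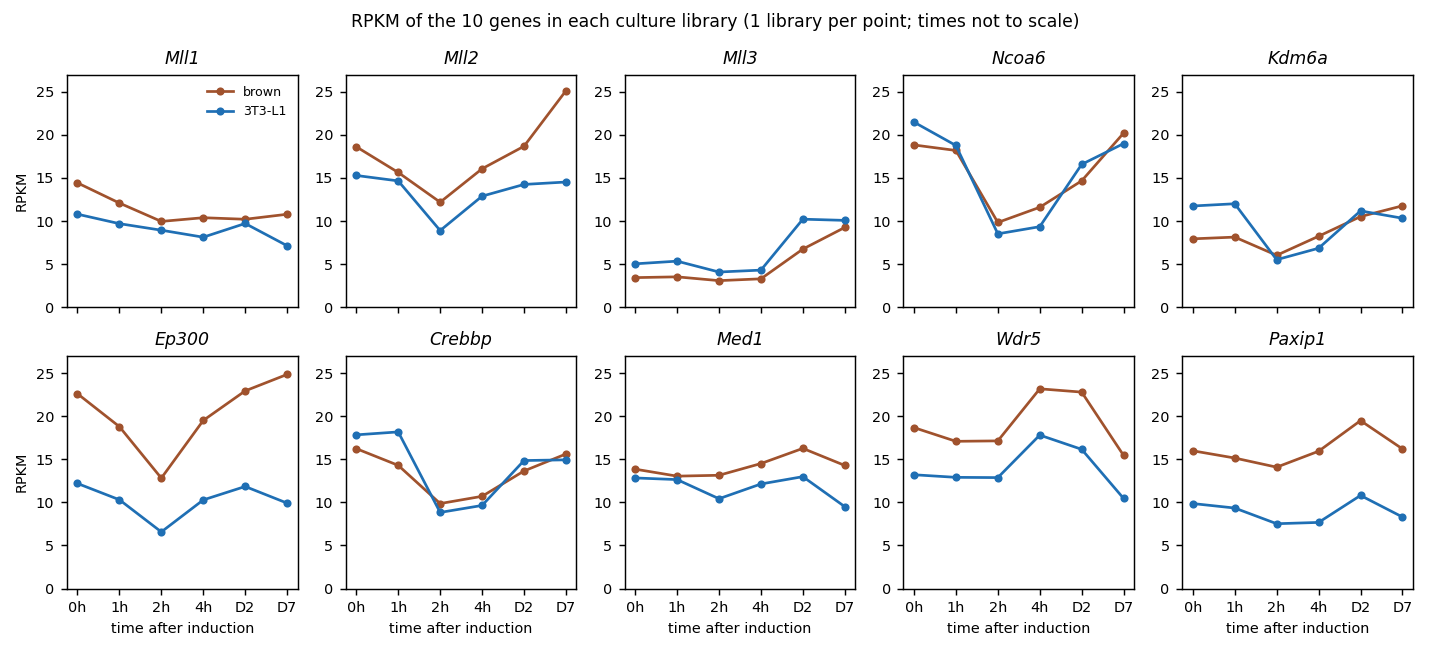
RPKM of each gene (y axis, the same scale in all panels) against time after induction (x axis, not to scale) in brown cells and in 3T3-L1, with 1 library per point. Ncoa6, Crebbp, Ep300 and Mll2 have their lowest point at 2h in both lines, and Mll3 is highest at day 2 or day 7.

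Ncoa6 had the deepest trough. In brown cells it stood at 18.8, 18.2, 9.84, 11.6, 14.7 and 20.2 RPKM in time order (0h, the 3 early times, day 2, day 7), and in 3T3-L1 at 21.5, 18.8, 8.52, 9.35, 16.6 and 19.0 RPKM at the same times. The 2h and 4h libraries of both lines lay below every other library of either line. At 2h the brown level was 52.3% of its 0h level (95% counting interval of the ratio 0.504 to 0.542) and the 3T3-L1 level 39.7% (0.381 to 0.413). Both listed Ncoa6 transcripts moved alike at 2h and 4h: the shorter, of 3896 bases, was at 53.1% in brown cells and 41.1% in 3T3-L1 at 2h. At day 7 in 3T3-L1 the shorter was at 76.7% of 0h and the kept one at 88.4%. These intervals cover the counting error of the libraries compared and no spread between cultures.

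Crebbp followed nearly the same course. It stood at 16.2, 14.3, 9.86, 10.7, 13.6 and 15.6 RPKM in brown cells and at 17.8, 18.2, 8.83, 9.64, 14.9 and 14.9 RPKM in 3T3-L1, in the same order. Its 2h and 4h libraries were again the lowest in both lines, at 60.8% and 65.9% of 0h in brown cells and 49.5% and 54.1% in 3T3-L1.

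Ep300 had its trough at 2h. Its levels from 0h to day 7 were 22.6, 18.8, 12.8, 19.5, 22.9 and 24.8 RPKM in brown cells and 12.2, 10.3, 6.57, 10.3, 11.8 and 9.91 RPKM in 3T3-L1. At 2h it was at 56.7% of 0h in brown cells and 53.9% in 3T3-L1, and by 4h at 86.3% and 84.3%. The 2 acetyltransferases, whose percentages at 2h were within 5 points of each other in each line, thus stood apart at 4h. The ratio of Ep300 to Crebbp was 1.82 at 4h in brown cells, against 1.39 at 0h, and 1.07 at 4h in 3T3-L1, against 0.684 at 0h. Ep300 exceeded Crebbp in all 6 brown libraries and both tissue libraries, but in 3T3-L1 only at 4h.

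Mll2, the MLL4 gene, also had its trough at 2h. It stood at 18.6, 15.6, 12.2, 16.1, 18.7 and 25.1 RPKM in brown cells and at 15.3, 14.7, 8.90, 12.9, 14.3 and 14.5 RPKM in 3T3-L1. At 2h this was 65.5% of 0h in brown cells and 58.2% in 3T3-L1, and at 4h 86.3% and 84.3%.

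Kdm6a differed between the lines at these times. Brown cells had 7.94, 8.14, 6.03, 8.24, 10.5 and 11.8 RPKM and 3T3-L1 had 11.8, 12.01, 5.52, 6.85, 11.2 and 10.3 RPKM. The 2h level was 75.9% of 0h in brown cells (interval 0.718 to 0.803) and 47.0% in 3T3-L1 (0.442 to 0.499), and the 4h level 103.8% and 58.3%. With 1 library per line and time the difference between lines has no replicate check and was not tested.

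The other 5 genes were at 69.0% of 0h or more at 2h and 4h in both lines. Mll1 was at 69.0% of 0h in brown cells and 82.8% in 3T3-L1 at 2h, and at 72.0% and 75.3% at 4h. Mll3 was at 89.8% and 81.2% at 2h, Paxip1 at 88.1% and 76.3%, and Med1 at 94.9% and 81.2%. Med1 varied least in brown cells, at 13.9, 13.0, 13.1, 14.5, 16.3 and 14.3 RPKM over the 6 times, and stood at 12.8, 12.6, 10.4, 12.1, 13.0 and 9.50 RPKM in 3T3-L1. Wdr5, the smallest transcript of the set at 2900 bases, stood at 91.8% of 0h in brown cells and 97.5% in 3T3-L1 by 2h, and by 4h at 124.1% and 134.8%. It was the highest of the 10 genes at 2h and 4h in both lines.

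**Figure D2:**
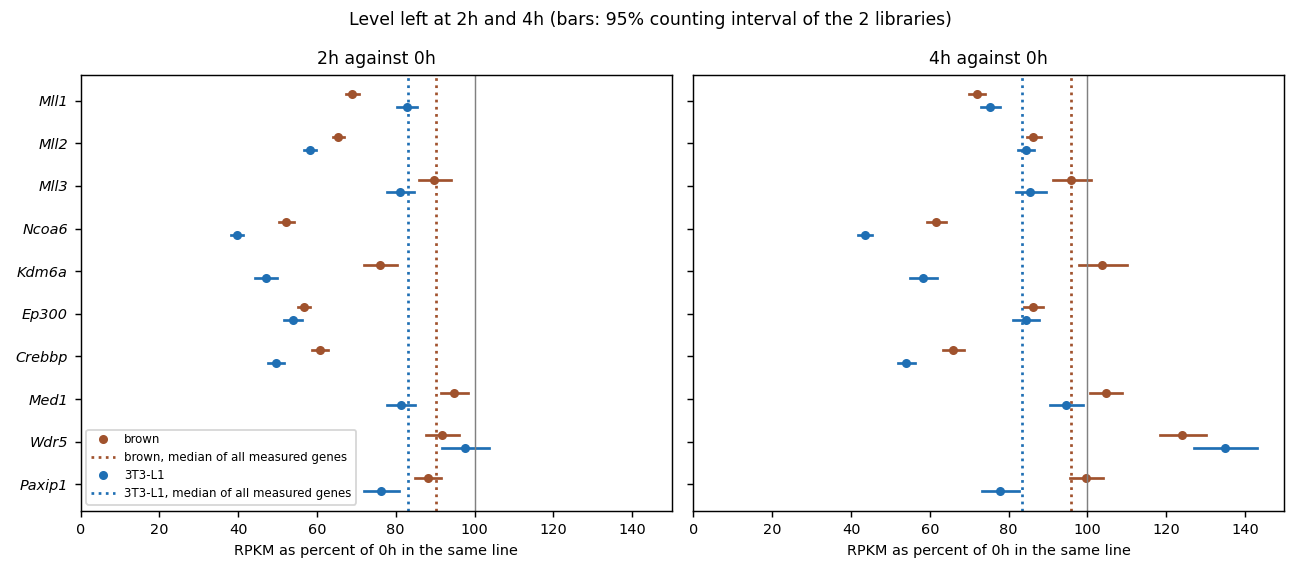
RPKM at 2h and at 4h as a percent of 0h in the same line (x axis) for each gene (y axis), with bars for the 95% counting interval of the 2 libraries and dotted lines for the median of all measured genes in each line. At 2h Ncoa6, Crebbp, Ep300 and Mll2 lie well left of the dotted line of their line, from 39.7% to 65.5%, while Mll3 and Med1 lie within 5 percentage points of it.

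Many genes were lower at 2h, so the 10 genes need that background. Among all genes reaching 2 RPKM in a pair of libraries, the median 2h level was 90.1% of 0h in brown cells and 83.0% in 3T3-L1, while the median of the 10 genes was 72.5% and 67.2%. At a threshold of 1.5-fold lower at 2h, 4 of the 10 genes passed in brown cells (Ncoa6, Ep300, Crebbp and Mll2), where 12.5% of 10532 measured genes did, and 5 in 3T3-L1 (the same 4 and Kdm6a), where 23.7% of 10384 did. At 4h the counts were 2 in brown cells (Ncoa6 and Crebbp), against 12% of all measured genes, and 3 in 3T3-L1 (with Kdm6a), against 28.9%, which is close to the share of members. None of the 10 was 1.5-fold higher at 2h or 4h, except Wdr5 at 4h in 3T3-L1 once libraries were rescaled by the median of ratios or adjusted for the length trend, and none passed in either direction at 1h.

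The test over both lines fitted log2(RPKM + 1) with a term for time and one for cell line (limma with Benjamini-Hochberg adjustment over 12428 genes), so the 2 lines stand in for replicates at each time. Fold changes are differences on this scale. No member was called at 1h, where 0.0402% of all genes were, and 321 genes but none of the 10 had an unadjusted p under 0.05. edgeR on reads recovered from the RPKM values called no member at 1h either. At 2h, 2 of the 10 members fell, where 0.909% of all genes did. Ncoa6 fell by 1.06 ± 0.15 (SE, adjusted p = 0.0315) and Ep300 fell by 0.79 ± 0.14 (adjusted p = 0.0477), both lower in 2 of 2 lines. Crebbp differed by -0.80 ± 0.15 (adjusted p = 0.0517), Kdm6a by -0.66 ± 0.22 (adjusted p = 0.17) and Mll2 by -0.65 ± 0.16 (adjusted p = 0.0942), which missed the threshold. At 4h, 1 member fell (1.46% of all genes did): Ncoa6 fell by 0.89 ± 0.15 (adjusted p = 0.0322), and Crebbp differed by -0.69 ± 0.15 (adjusted p = 0.0583).

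These early calls sit near the threshold. The Ncoa6 calls ended when any 1 of the 8 libraries of 0h to 4h was left out, with estimates from -0.93 to -1.18 at 2h (adjusted p up to 0.382) and -0.73 to -1.04 at 4h (adjusted p up to 0.341). The Ep300 call at 2h ended when any of those 8 or either day 2 library was left out (-0.74 to -0.84, adjusted p up to 0.46). Over the 10 other settings tried, adjusted p ran from 0.0109 to 0.212 for Ncoa6 at 2h, from 0.00975 to 0.169 for Ncoa6 at 4h and from 0.00991 to 0.975 for Ep300 at 2h, and edgeR called neither gene at 2h. When only libraries up to 4h were fitted, with a smaller spread, 4 members fell at 2h, where 14% of all genes did: Ncoa6, Ep300, Crebbp (adjusted p = 0.0203) and Mll2 (adjusted p = 0.0178). At 4h that fit called Ncoa6, Crebbp (adjusted p = 0.0196) and Mll1 (adjusted p = 0.0334) lower, where 20.7% of genes fell, and Wdr5 higher by 0.35 ± 0.08 (adjusted p = 0.0276), where 7.0% rose. The fits differ in which libraries set the spread, and in the fit of all libraries a late batch cannot be told apart from time.

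The median gene itself shifted with the scaling, by -0.17 at 2h, -0.13 at 4h and -0.19 at day 7 on the log2 scale, and the members' medians at 2h and 4h were -0.51 and -0.22. After libraries were rescaled by the median of ratios, the 2h differences were -0.82 for Ncoa6 (adjusted p = 0.043), -0.57 for Crebbp (adjusted p = 0.107), -0.56 for Ep300 (adjusted p = 0.105), -0.44 for Kdm6a and -0.41 for Mll2, and those of Mll3, Med1 and Wdr5 turned above 0. The early difference also varied with transcript length, and 9 of the 10 members are longer than 5000 bases. The median 2h difference was -0.10 for genes under 1500 bases and -0.20 for genes of 8000 bases or more, of which 1.12% fell. After adjustment for that trend Ncoa6 differed by -0.83 at 2h (adjusted p = 0.0494) and -0.67 at 4h (adjusted p = 0.0584).

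**Figure D3:**
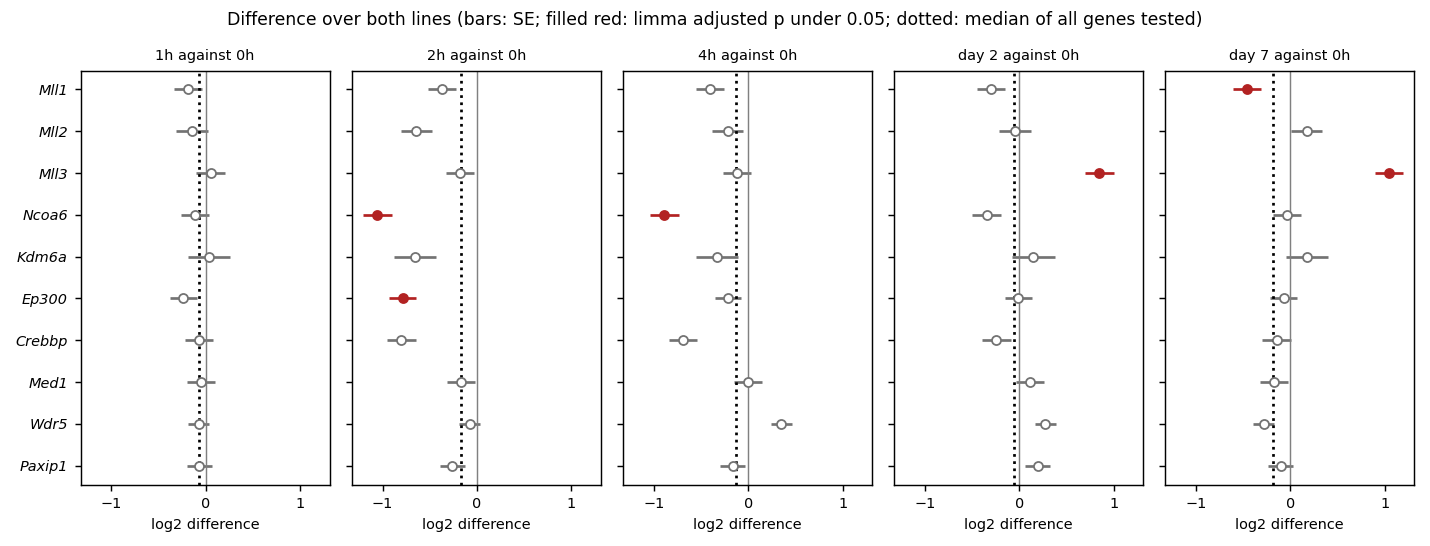
Fitted log2 difference against 0h over both lines (x axis) for each gene (y axis) at 1h, 2h, 4h, day 2 and day 7, with SE bars, filled red where limma's adjusted p was under 0.05 and a dotted line at the median of all genes tested. Ncoa6 and Ep300 are called lower at 2h, Ncoa6 at 4h, Mll3 higher at day 2 and day 7, and Mll1 lower at day 7.

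At day 2 Ncoa6 was at 77.9% of 0h in brown cells and 77.2% in 3T3-L1, and Crebbp at 84.0% and 83.3%, each nearer to 0h than at 4h. Mll3 stood apart. Mll3 was at 3.44, 3.53, 3.09, 3.30, 6.75 and 9.26 RPKM in brown cells and at 5.04, 5.35, 4.09, 4.31, 10.2 and 10.1 RPKM in 3T3-L1, so that all 4 late libraries exceeded all 8 early ones. It was at 196.2% of 0h in brown cells and 202.8% in 3T3-L1 at day 2, and at 269.2% in brown cells (interval 2.60 to 2.79) and 2.0 times the 0h level (1.93 to 2.07) in 3T3-L1 at day 7. Mll3 was the only member 1.5-fold or more higher at day 2 or day 7 in either line. In brown cells 19.2% of measured genes passed that threshold at day 2 and 25.7% at day 7, and in 3T3-L1 14.5% and 19.6%. In the limma fit Mll3 rose by 0.85 ± 0.15 at day 2 (adjusted p = 0.0098), where 6.18% of all genes rose, and by 1.04 ± 0.15 at day 7 (adjusted p = 0.00172), where 14.9% did. The day 2 call ended without the brown 0h library (adjusted p = 0.0859) or the 3T3-L1 0h library (adjusted p = 0.0686), and the day 7 call held with each of the 12 libraries left out (adjusted p up to 0.0216).

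The ratio of Mll3 to Mll2, the catalytic subunits of the enhancer complexes, changed accordingly. It was 0.185, 0.226, 0.254, 0.205, 0.361 and 0.369 in brown cells and 0.330, 0.365, 0.460, 0.334, 0.717 and 0.694 in 3T3-L1 over the 6 times. Mll2 exceeded Mll3 in every library, adult (0.722) and embryonic tissue (0.576) included, and the ratio was higher in 3T3-L1 than in brown cells at each of the 6 times.

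**Figure D4:**
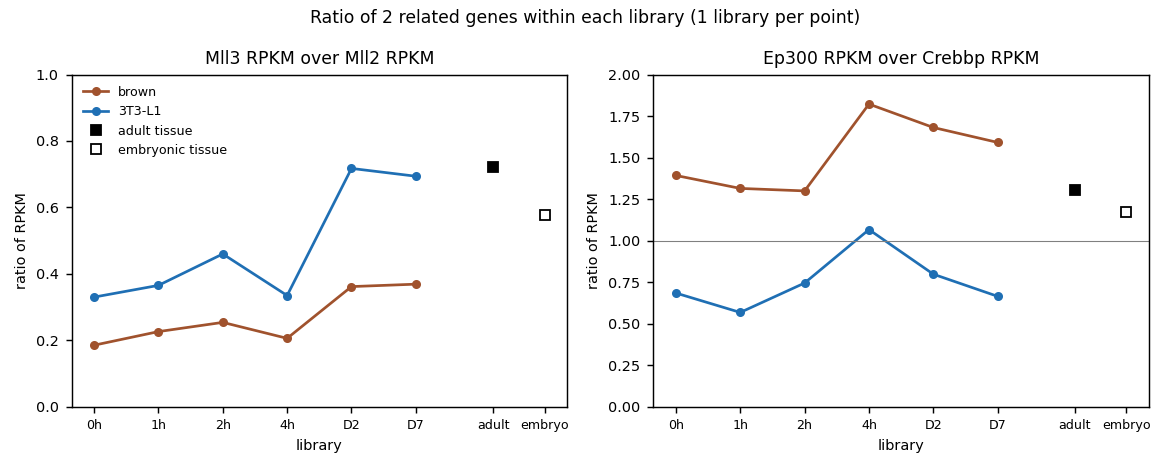
Ratio of RPKM of Mll3 to Mll2 (left) and of Ep300 to Crebbp (right) in each library (x axis, times not to scale), with 1 library per point. The Mll3 ratio at day 2 and day 7 is 0.361 and 0.369 in brown cells and 0.717 and 0.694 in 3T3-L1, above the earlier times of the same line, and the Ep300 ratio is above 1 in every brown library.

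Mll1 was the only member called lower at day 2 or day 7 against 0h. It stood at 14.4, 12.1, 9.96, 10.4, 10.2 and 10.8 RPKM in brown cells and at 10.8, 9.70, 8.94, 8.13, 9.72 and 7.14 RPKM in 3T3-L1, and at day 7 at 74.8% of 0h in brown cells and 66.1% in 3T3-L1. It fell by 0.46 ± 0.15 at day 7 (adjusted p = 0.0394), where 25.8% of all genes fell. The call held in 3 of the 12 fits that left out 1 library (without 3T3-L1 day 2, brown day 2 or brown day 7, estimates over all 12 from -0.61 to -0.31, adjusted p up to 0.196) and ended after the median-of-ratios rescaling (-0.30, adjusted p = 0.128, and 0.0404 to 0.255 over the 9 settings).

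The late libraries were also set against 4h. Genes that were low at 4h start from that low level here, so a rise is favoured in advance and adds no independent evidence to the 4h differences. The same holds for a fall of genes that were high at 4h. At day 2, 1 member rose (8.08% of all genes did): Mll3, by 0.96 ± 0.15 (adjusted p = 0.00733, and 0.0716 without the 3T3-L1 4h library), while Ncoa6 differed by 0.54 ± 0.15 (adjusted p = 0.0501). At day 7, 3 members rose, where 20.5% of all genes did, and 1 fell, where 23.0% did. Mll3 rose by 1.16 ± 0.15 (adjusted p = 0.000934), Ncoa6 by 0.85 ± 0.15 (adjusted p = 0.00358) and Crebbp by 0.54 ± 0.15 (adjusted p = 0.0218). The Crebbp call ended without the 3T3-L1 4h library (adjusted p = 0.143) or the brown day 7 library (adjusted p = 0.0737). Wdr5, which stood at 18.7, 17.1, 17.1, 23.2, 22.8 and 15.4 RPKM in brown cells and at 13.2, 12.9, 12.9, 17.8, 16.2 and 10.5 RPKM in 3T3-L1, fell by 0.64 ± 0.11 (adjusted p = 0.00337). Wdr5 was highest at 4h in both lines, and its limma difference at day 7 against 0h was -0.28 ± 0.11 (adjusted p = 0.078), which missed the threshold. At day 7 Ncoa6 was at 107.3% of 0h in brown cells and 88.4% in 3T3-L1, and Crebbp at 96.2% and 83.7%.

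The lines themselves differed in several members over all 6 times. In the limma fit 6 of the 10 were higher in brown cells than in 3T3-L1, where 31.3% of all genes were, and 1 was lower, where 18.6% were. The share of genes higher in brown cells rose with transcript length, from 28.3% under 1500 bases to 41.4% at 8000 bases or more. It was 36.3% at 5000 to 8000 bases, where 5 members lie, and 4 members are longer. Ep300 was higher by 0.92 ± 0.08 (adjusted p = 0.000165) and Paxip1 by 0.79 ± 0.08 (adjusted p = 0.000222), each higher in brown cells at 6 of 6 times. Paxip1 stood at 16.0, 15.1, 14.1, 15.9, 19.5 and 16.2 RPKM in brown cells and at 9.86, 9.34, 7.52, 7.67, 10.8 and 8.30 RPKM in 3T3-L1, so the lines did not overlap. Wdr5 was higher by 0.43 ± 0.06 (adjusted p = 0.00139), Mll2 by 0.36 ± 0.10 (adjusted p = 0.0153), Mll1 by 0.29 ± 0.09 (adjusted p = 0.0242) and Med1 by 0.26 ± 0.09 (adjusted p = 0.0386). Mll3 was lower in brown cells by 0.37 ± 0.09 (difference -0.37, adjusted p = 0.0103), at 6 of 6 times. Ncoa6 and Crebbp differed by 0.03 ± 0.09 (adjusted p = 0.814) and -0.04 ± 0.09 (adjusted p = 0.742). With the length adjustment Crebbp was called lower in brown cells (-0.25, adjusted p = 0.0313). The Mll1 and Med1 calls ended after the median-of-ratios rescaling (0.18 with adjusted p = 0.107, and 0.14 with adjusted p = 0.145). With the length adjustment the calls of Mll2 (0.10, adjusted p = 0.339), Mll1 (0.03, adjusted p = 0.791) and Med1 (0.07, adjusted p = 0.463) ended. Over the 9 settings adjusted p ran from 0.0133 to 0.791 for Mll1, 0.0376 to 0.463 for Med1 and 0.0146 to 0.339 for Mll2. Mll1 lost its call when any of the 0h, 1h or 4h libraries of either line was left out (adjusted p up to 0.0737), and Med1 when any library other than the 1h ones was (adjusted p up to 0.104). Each line is 1 immortalized culture, so line, genotype and immortalization cannot be told apart. The 6 times stand in for replicates of a line here, so these SEs and p-values measure no spread between cultures of a line.

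Other genes of the same machinery were read from lists chosen by function. Over all 12428 genes tested, 0.909% fell at 2h and 1.46% at 4h, and 116 genes rose at 4h. At such shares most short lists would hold no call, so a list without a call is no contrast to one with a call. Of the other 5 H3K4 methyltransferase genes tested, 1 fell at 2h, Mll5, at 12.8 RPKM in brown cells (20.6 at 0h) and 6.72 RPKM in 3T3-L1 (13.9 at 0h), by 0.80 ± 0.14 (adjusted p = 0.0456). Of 10 further subunits of COMPASS and MLL complexes 2 fell at 2h and 2 at 4h, with a median difference of -0.50 at 2h, against -0.17 for all genes tested. Men1, which encodes menin, the subunit that joins MLL1 and its closest relative, fell by 1.01 ± 0.13 at 2h (adjusted p = 0.0291). The gene listed as 2900092E17Rik, by accession Pagr1a, whose protein belongs to the MLL3 and MLL4 complexes with PAXIP1, fell by 1.15 ± 0.15 at 2h (adjusted p = 0.0268) and by 0.85 ± 0.15 at 4h (adjusted p = 0.0334). It stood at 7.99 RPKM in brown cells at 2h (17.9 at 0h) and at 4.86 RPKM in 3T3-L1 (12.8 at 0h). Hcfc1, a chromatin adaptor of MLL1 and SET1 complexes, fell by 0.89 ± 0.15 at 4h (adjusted p = 0.0321).

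As background for the counts below, 2327 of all 12428 genes tested had an unadjusted limma p under 0.05 at 2h, and 2677 at 4h. Among 6 H3K4 and H3K27 demethylase genes 1 fell at 2h, Kdm5b, which removes H3K4 methylation, by 1.08 ± 0.18 (adjusted p = 0.0426). Among 11 other acetyltransferases and p160 coactivators, the median at 2h was -0.375, 5 had an unadjusted p under 0.05 with none called, and 1 gene fell at 4h, Kat2b (PCAF), by 1.01 ± 0.15 (adjusted p = 0.0241). Of 31 Mediator genes beside Med1 limma called none at 2h (7 had an unadjusted p under 0.05), and at 4h Med22 rose by 0.87 ± 0.13 (adjusted p = 0.0241) and Med16 fell by 0.65 ± 0.13 (adjusted p = 0.0483). The Mediator median at 2h was -0.20, close to that of all genes. Of 16 genes of SWI/SNF and BET proteins Arid1a, a SWI/SNF subunit gene, fell by 1.15 ± 0.17 at 2h (adjusted p = 0.0331). None of 9 corepressor and deacetylase genes and none of 4 PRC2 genes was called by limma at 2h or 4h, with medians of -0.11 and -0.52 at 2h. At an unadjusted p under 0.05 there were 0 corepressor genes at 2h and 1 at 4h, and 1 PRC2 gene at 2h and 0 at 4h. edgeR called none of the listed genes at 2h. The 10 calls on genes named from the lists kept their sign in every alternative, but each ended when any 1 of the 8 libraries up to 4h was left out and held in 2 or 4 of the 12 such fits. The highest adjusted p over all alternatives was 0.841, for Mll5 with no cell line term.

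In tissue the median of the 10 genes was 4.78 RPKM in the adult and 6.01 RPKM in the embryonic library, below their median in every culture library (8.68 to 16.1 RPKM). Single genes overlapped culture levels. Mll3, at 4.68 RPKM in adult and 5.30 RPKM in embryonic tissue, was above the 4 brown libraries of 0h to 4h. In both tissues it was also above 3T3-L1 at 2h and 4h (4.09 and 4.31 RPKM), and in the embryonic one above 3T3-L1 at 0h (5.04 RPKM). Embryonic Wdr5 (11.2 RPKM) was above 3T3-L1 at day 7 (10.5 RPKM). Embryonic Ep300 (7.13 RPKM) and Mll2 (9.20 RPKM) were above 3T3-L1 at 2h (6.57 and 8.90 RPKM). RPKM is a share of a library's reads, and the 10 most counted genes took 17.95% of adult and 7.873% of embryonic counts. Such shares, fewer cells of a type and less RNA per cell cannot be told apart in whole tissue. No level of all genes is set beside this gap between tissue and culture, and its causes were not tested. The adult level was below the embryonic level for all 10 genes by RPKM. Paxip1 was at 2.26 RPKM in adult and 5.34 RPKM in embryonic tissue (61 and 507 reads), a ratio of 0.422 (exact 95% counting interval 0.318 to 0.551). Wdr5 stood at 6.38 and 11.2 RPKM (ratio 0.572, interval 0.458 to 0.709) and Kdm6a at 2.91 and 4.99 RPKM (ratio 0.584, 0.456 to 0.739). Ncoa6, at 5.85 and 5.93 RPKM, was nearly level (ratio 0.986, 0.844 to 1.15). The ratios of the other 6 members ran from 0.704 (Mll2, 6.48 RPKM in adult and 9.20 RPKM in embryonic tissue) to 0.884 (Mll3), each with an interval below 1.

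Paxip1, Wdr5 and Kdm6a were the 3 members 1.5-fold or more lower in the adult library, where 53.1% of 10709 measured genes were, and the median ratio was 0.719 for the members and 0.643 for all measured genes. After rescaling by the median of ratios 7 members were higher in the adult library (Ncoa6 by 1.45) and 3 lower (Paxip1 0.622). Markers of other cell types differed between these libraries. Preadipocyte and fibroblast markers summed to 31.8 RPKM in adult and 362.8 RPKM in embryonic tissue, and endothelial markers to 133.6 and 254.7 RPKM. The 6 skeletal muscle markers summed to 1232 RPKM in adult and 392.4 RPKM in embryonic tissue, and the erythroid markers to 123.4 and 1630 RPKM, and their part in the ratios was not tested. With 1 library each, no test between the tissues is possible.

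**Figure D5:**
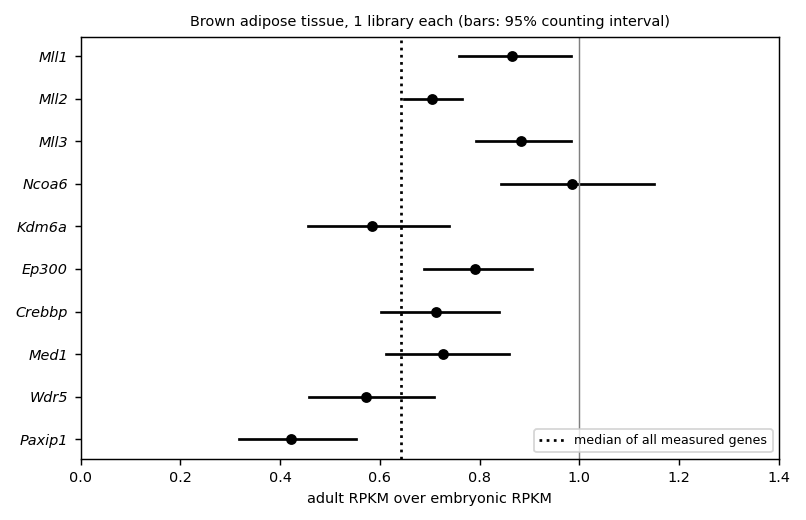
Adult RPKM over embryonic RPKM in brown adipose tissue (x axis) for each gene (y axis), with bars for the 95% counting interval and a dotted line at the median of all measured genes. Paxip1 (0.422) lies left of the median ratio of 0.643, and Ncoa6 (0.986) lies nearest to 1.

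Among tested genes with a mean of 5 RPKM or more in culture, those whose level moved most like a member's over the 12 culture libraries were ranked by Pearson's r of log2(RPKM + 1), a description over libraries that share lines, times and depth. For Ncoa6 these were Atf7ip (0.965), Gab1 (0.952) and Pias4 (0.943), and Atf7ip was also among the 3 nearest to Crebbp (0.936). For Mll3 they were Pcx (0.984), Tbc1d4 (0.981) and Fbxo18 (0.978), and for Ep300 Srsf4 (0.968), Brd3 (0.967) and Arhgef11 (0.963). Mll5 was among the nearest to Mll2 (0.933) and the Mediator gene Med4 among the nearest to Med1 (0.963).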

How the data were processed

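Culture values are RPKM, per the file headers, as rounded by the authors to 2 decimals. For tissue the authors deposited, per transcript, a count of reads beside its RPKM. The submitters' processing notes name CASAVA 1.8.2 and mm9. The aligner, counter and strand setting were not given in the sources read. Dividing the deposited tissue count by RPKM returned length times library depth for all but 5320 of the 29082 transcripts. The scale that turns this product into lengths was the most common ratio to GENCODE lengths, over 23057 matched transcripts. Using these lengths, 203 to 322 low values per culture library were all within 0.2 of a whole number of reads, from which depth was derived.

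Genes at 1 RPKM or more in at least 2 culture libraries were tested with limma 3.58.1 (eBayes with trend, pseudocount 1, time and line terms), with edgeR 4.0.16 on the recovered reads as an alternative. Fits were checked on simulated data. Each group is 1 library, so p-values between times measure the spread between the lines around a shared time course. Those between lines take the times of a line as its replicates, and no spread between cultures enters them. Named beside the members are up to 3 genes per list with the largest called difference at 2h or 4h, and the 3 genes most like a member. The members and lists were chosen with earlier results of these data known.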

Additional observations from a re-analysis of the deposited data

Results flagged for a closer look

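Against 0h, 5 results went opposite ways in the lines, each outside its counting interval, and with 1 library per line and time the differences were not tested. At day 7 against 0h, Kdm6a was at 148.2% of 0h in brown cells and 87.9% in 3T3-L1, a difference of 0.754 on the log2 scale. Mll2 was at 134.9% and 95.03% (difference 0.506), Ep300 at 109.9% and 81.3% (0.435), and Ncoa6 at 107.3% and 88.4% (0.28). At 4h against 0h, Med1 was at 104.7% in brown cells and 94.5% in 3T3-L1 (0.147). The opposite signs depend on the scaling: with the length-trend adjustment all 5 lay above 0 in both lines (in 3T3-L1 by 0.133 for Kdm6a, 0.182 for Mll2, 0.0261 for Ep300, 0.147 for Ncoa6 and 0.214 for Med1). The median gene also differed between the lines, at 92.7% of 0h in brown cells and 80.1% in 3T3-L1 at day 7. At 4h it was at 95.7% and 83.5%. Against 4h, Mll1 at day 7 was at 103.8% in brown cells and 87.8% in 3T3-L1. The brown day 7 library is one of those marked as duplicates of another series, and its header style is shared with the other late libraries.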

How the results depend on the processing

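Of the member counts, 2 called at 2h became 0 with no filter on low values, with no cell line term (no replicate block) or with edgeR, 1 with the median-of-ratios or quantile scaling, the length adjustment or eBayes without trend, and 4 in the 0h to 4h libraries alone. The 1 called at 4h became 0 with no filter, no cell line term or the length adjustment, and 4 in the early libraries alone. Without the cell line term the counts at day 2 and day 7 against 0h were 0 and 1, and against 4h 0 and 2. Day 7 against 0h also gave 1 with either rescaling, the length adjustment and edgeR, and 3 with no filter on low values. Day 2 against 4h gave 2 with pseudocount 0.1, either rescaling and summed transcripts. Leaving out 1 library gave 0 to 4 at 2h, 0 to 2 at 4h, 0 to 1 at day 2, 1 to 2 at day 7, 0 to 2 and 3 to 5 against 4h, and 5 to 6 between lines.

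Of members 1.5-fold lower at 2h, 4 in brown cells became 0 at a fold of 2 and 2 with rescaling or length adjustment, and 5 in 3T3-L1 became 3 at a fold of 2 or with rescaling. At 4h, 2 in brown cells became 0 at a fold of 2, 1 with rescaling and 0 with length adjustment, and 3 in 3T3-L1 became 1 at a fold of 2 or with length adjustment. Higher members in brown cells went to 0 at day 2 at a fold of 2 and to 2 at day 7 with rescaling or length adjustment. The 3 lower in adult tissue became 1 at a fold of 2 and with either count scaling.

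Signs turned for small differences. Under the length adjustment these were Mll2 (0.0198), Ep300 (0.00347) and Paxip1 (0.0376) at 4h. With the median of ratios, quantile scaling and length adjustment in turn, Mll3 was 0.0168, 0.099 and 0.0172 at 2h and 0.016, 0.10 and 0.12 at 4h, Med1 was 0.0571, 0.0194 and 0.055 at 2h and 0.14, 0.11 and 0.20 at 4h, and Wdr5 was 0.16, 0.10 and 0.16 at 2h. With edgeR, Mll3 was 0.0138 at 4h, Med1 0.037 at 2h and 0.15 at 4h, and Wdr5 0.14 at 2h. Med1 at 4h ranged from -0.0987 to 0.0856 over the fits that left out 1 library, and was above 0 without the 3T3-L1 0h or the brown 4h library. The causes were not tested.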
